A study of Mus musculus with 2 samples.

Results

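Arhgap12 and Arhgap27 are GTPase-activating proteins (GAPs) of the family that combines SH3, WW and PH domains with a RhoGAP domain. They were examined here with their relatives Arhgap9 and Arhgap15, chosen by gene symbol in the study's table of GAPs and GEFs. The 4 genes had 13 probe sets, of the 366 probe sets and 168 genes in that table that belong to 1 gene. Arhgap12 had 4 probe sets, Arhgap27 had 2, Arhgap9 had 4 and Arhgap15 had 3. A probe set is the group of short probes with which an Affymetrix array reads 1 stretch of a transcript.

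The study hybridised RNA of a conditionally immortalized podocyte line to Affymetrix 430v2 murine arrays. Undifferentiated cells were grown at 33 °C on collagen I with 10% serum and 100 U/ml interferon gamma. Differentiated cells of the line were kept at 37 °C in 5% serum, without interferon gamma, for at least 10 days, and the labels describe them as growth arrested. With 1 deposited array per group, differences are given by size, unreplicated, and no test between the groups could be run. Temperature, serum, interferon gamma, the RNA kit and growth arrest all differed between the groups and cannot be told apart. The line came from a wildtype mouse with the Immorto transgene, which expresses a temperature-sensitive large T antigen from an interferon-inducible promoter, so the cells of both groups carried it. Both groups are cultures of 1 line.

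Rac, Cdc42, RhoA and other small GTPases act as switches, and GAPs turn them off by speeding the hydrolysis of bound GTP. The RhoGAP domain does this, while SH3 and WW domains bind proline-rich partners and the PH domain can bind membrane phosphoinositides. Podocyte foot processes rest on an actin skeleton that Rac, Cdc42 and RhoA control. Arhgap12 acts on Rac. Arhgap27, also known as CAMGAP1, acts on Rac and Cdc42 and binds CIN85, an adaptor of endocytosis that is related to the podocyte adaptor CD2AP. Arhgap9 and Arhgap15 are best known from blood cells, and Arhgap15 has the PH and RhoGAP domains but no SH3 or WW domain.

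RefSeq promoter windows are reported here for 2 of the 4 genes, Arhgap27 and Arhgap15, each with 2 transcription starts. Other windows were left out of this set, so a gene without a window here may have one in RefSeq. The Arhgap27 windows are shown because the gene's 2 probe sets gave opposite directions and the gene has 2 starts. Each window runs from 250 bases before to 50 bases after a start (RefSeq, GRCm38.p6, minus strand), and the windows begin 18990 bases apart on chromosome 11. Capitals mark a match to TTCNNNGAA, the letters of the GAS element, known from promoters that respond to interferon gamma.
Arhgap27 upstream start, chr11:103363643-103363942: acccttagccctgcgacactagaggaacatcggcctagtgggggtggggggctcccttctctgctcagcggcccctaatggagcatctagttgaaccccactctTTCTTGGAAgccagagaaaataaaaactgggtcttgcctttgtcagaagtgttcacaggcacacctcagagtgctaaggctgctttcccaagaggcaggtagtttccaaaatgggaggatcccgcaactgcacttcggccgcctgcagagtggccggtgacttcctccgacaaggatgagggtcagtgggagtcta
Arhgap27 downstream start, chr11:103344653-103344952: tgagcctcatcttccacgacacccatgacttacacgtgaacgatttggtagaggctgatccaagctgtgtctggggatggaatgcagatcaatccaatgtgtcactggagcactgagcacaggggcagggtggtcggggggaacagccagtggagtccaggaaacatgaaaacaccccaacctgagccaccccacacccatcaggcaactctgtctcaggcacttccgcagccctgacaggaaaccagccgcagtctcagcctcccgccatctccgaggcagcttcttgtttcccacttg
The upstream window held 1 match, whose first base lies 146 bases before the start, and the downstream window held 0. The motif reads alike on both strands, and 8.30% of 32851 windows in the RefSeq table held it. Neither Arhgap27 window held TATAAA on either strand, which 13.6% of all windows held. The downstream window overlapped by 150 bases the promoter window of Arhgap27os3, a gene on the opposite strand. A match is a description of these letters alone, and the files do not give which start each probe set reads.

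The authors deposited 2 tables of linear signals. The GAP and GEF table gives each probe set a signal, a standard error and a present or absent call in each group. The value table gives a signal alone, for 45037 probe sets besides 64 controls. The undifferentiated columns of both tables were equal within 0.005 signal units for 374 of 374 shared probe sets, and the differentiated columns were equal for 0. For 10 of the 13 family probe sets the 2 differentiated columns lay at least 2-fold apart, against 203 of all 374 (54.3%). Each result is therefore given once per table, and both differences share the undifferentiated array. Which array, arrays or processing run gave the differentiated column of the GAP and GEF table is not given. The error printed as model SE comes from the deposited standard errors. These are read as the error over the probes of 1 array, and on that reading hold no variation between cultures.

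In the GAP and GEF table, Arhgap12 was present in both groups by all 4 of its probe sets and differed by less than 2-fold in each. Its mean log2 difference, differentiated minus undifferentiated, was 0.11 ± 0.22 (model SE, 4 probe sets). Arhgap27 was low, and its probe sets pointed opposite ways, one 4.37-fold higher in differentiated cells and the other 1.79-fold lower. Arhgap9 was absent in both groups by all 4 of its probe sets. Arhgap15 was present by 1 probe set in each group, and not by the same one. By the value table, the differentiated signals of Arhgap12 1451526_at and Arhgap27 1416758_at were at least 2-fold above the undifferentiated ones.

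**Figure D1:**
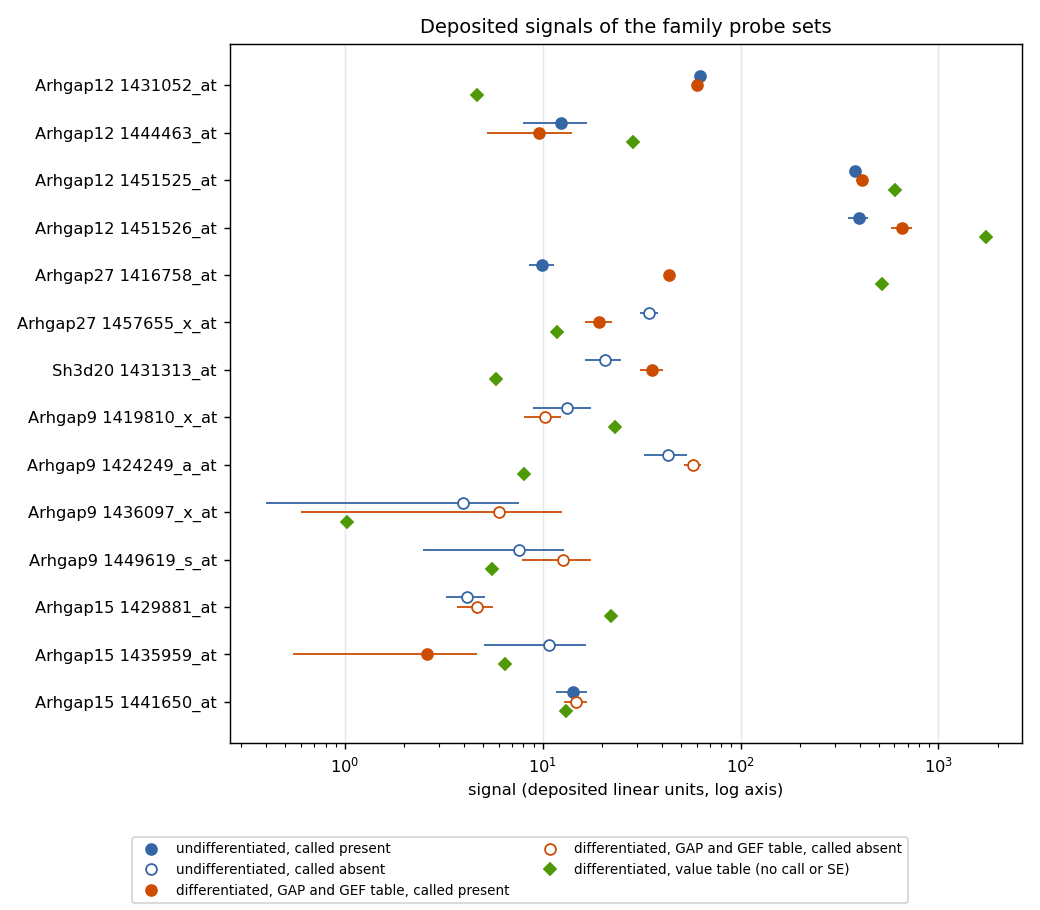
Deposited signals of the 13 family probe sets, and of 1 listed under the older symbol Sh3d20, on a log axis. Circles are the GAP and GEF table's signals, filled where called present, with 1 model SE (lower ends are clipped near 0 where the SE is about as large as the signal); diamonds are the value table's differentiated signals. The Arhgap12 circles of each probe set lie close together, and the diamonds of Arhgap12 1451526_at (1749) and Arhgap27 1416758_at (517) lie to the right of their circles.

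Arhgap12, the Rac GAP, was read by 1451525_at at 380 ± 18.25 in undifferentiated and 410 ± 29.2 in differentiated cells of the GAP and GEF table. These signals overlapped within their model SE, with a log2 difference of 0.11 ± 0.12. Probe set 1451526_at read Arhgap12 at 397 ± 46.0 and 658 ± 80.7, a 1.66-fold higher signal in differentiated cells. Its log2 difference of 0.73 ± 0.24 was 2.99 times its model SE.

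Both of these Arhgap12 probe sets were designed on 1 target sequence, so they are not independent readings. Their log2 differences lay 0.62 ± 0.27 apart, 2.26 times the model SE. Across 36 pairs of probe sets in the table that share a target and were present in both groups, from 26 genes, the median gap was 0.19. The gaps ran from 0.011 to 1.27, and 3 pairs had a larger gap than Arhgap12.

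The other Arhgap12 probe sets were designed on other targets. Probe set 1431052_at read Arhgap12 at 62.3 ± 3.77 in undifferentiated and 60.3 ± 3.43 in differentiated cells, a log2 difference of -0.048 ± 0.12. Probe set 1444463_at read it at 12.3 ± 4.35 and 9.63 ± 4.40, a log2 difference of -0.35 ± 0.83. In both, the signals of the 2 groups overlapped within their model SE. Signals of 1444463_at were called present although they lay under the 95th percentile of absent-called signals, 51.5 for undifferentiated and 68.3 for differentiated cells. The differentiated signal of 1431052_at, 60.3, also lay under it.

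Arhgap27 was read by 1416758_at at 9.98 ± 1.49 in undifferentiated and 43.65 ± 1.75 in differentiated cells of the GAP and GEF table, both called present. The log2 difference was 2.13 ± 0.22, 9.55 times its model SE. The 2 signals did not overlap within their errors, but both lay under that 95th percentile of absent-called signals. Probe set 1457655_x_at read Arhgap27 at 34.6 ± 3.67, called absent, and 19.4 ± 3.06, called present. Its log2 difference was -0.84 ± 0.27, so the higher of its signals was the one called absent. Affymetrix marks with _x_at those probe sets whose probes can match other transcripts.

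The mean of both Arhgap27 probe sets was 0.65 ± 0.18 (model SE) and describes neither. Another probe set, 1431313_at, is listed under Sh3d20, an older symbol of Arhgap27, with another gene ID, and so was not a member. It read 20.55 ± 4.20, called absent, and 35.85 ± 4.72, called present, a log2 difference of 0.80 ± 0.35. With it, the Arhgap27 mean was 0.70, and without any absent-called signal it was 2.13, from 1416758_at alone.

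Arhgap9, a GAP known from leukocytes, had undifferentiated signals between 3.98 and 43.1 and differentiated signals between 6.02 and 57.6 over its 4 probe sets, and all 8 calls were absent. Probe set 1424249_a_at read Arhgap9 at 43.1 ± 10.8 and 57.6 ± 5.55. Signals and errors of this size lie under the 95th percentile of absent-called signals, so no fold is given for Arhgap9.

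Arhgap15, a Rac GAP of leukocytes, had signals between 4.17 and 14.2 in undifferentiated and between 2.60 and 14.7 in differentiated cells. Probe set 1441650_at read Arhgap15 at 14.2 ± 2.52, called present, and 14.7 ± 1.95, called absent. Probe set 1435959_at read it at 10.8 ± 5.72, called absent, and 2.60 ± 2.05, called present. The last is the lowest signal called present in differentiated cells in the table, and its log2 difference of -2.05 ± 1.37 was within 2 model SE. Calls at such signals are a weak sign of expression, and the remaining Arhgap15 probe set, 1429881_at, was absent in both groups at 4.17 and 4.65.

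Of the 13 family probe sets, 8 were present in at least 1 group and 5 in both. At the 2-fold threshold, 1 of the 8 was higher in differentiated cells (Arhgap27 1416758_at) and 1 lower (Arhgap15 1435959_at). Of all 307 probe sets measured in this way, the share past 2-fold was 17.9% upward and 7.49% downward in differentiated cells. With 1 of 8 each way, the family's shares lay within a few probe sets of these. The split over the table was 55 higher and 23 lower as deposited, 25 and 70 with the groups' medians set equal, 41 and 32 with equal 75th percentiles, and 42 and 29 after quantile normalization. The median log2 difference of the 307 moved from 0.17 by -0.66, -0.26 and -0.17 under these scalings. Under all 3 the mean of Arhgap12 turned below 0, to -0.55, -0.15 and -0.13, while Arhgap27 1416758_at stayed above 0, at 1.47, 1.87 and 1.92. The mean of Arhgap27 was -0.016, 0.39 and 0.46.

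In the value table, signals were quantile-normalized between the arrays and then raised to a floor of 37.6, which is the 40th percentile over both arrays. A difference with 1 array at this floor is a bound. Of the 13 family probe sets, 6 lay above the floor on at least 1 array and 7 on neither. Those 6 were 3 of Arhgap12, both of Arhgap27, and 1424249_a_at of Arhgap9, whose absent-called undifferentiated signal of 43.1 faced 8.08. All 3 Arhgap15 probe sets lay under the floor on both arrays, with differentiated signals from 6.49 to 22.3. Past 2-fold, 2 of the 6 were higher in differentiated cells and 0 lower. Among 31831 probe sets above the floor on at least 1 array, the share past 2-fold was 21.1% upward and 22.0% downward. That split was 6709 higher and 7018 lower, and 4957 and 10192 with equal medians.

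Arhgap12 1451526_at read 397 in undifferentiated and 1749 in differentiated cells of the value table, with a log2 difference of 2.32 after normalization. The same probe set read 658 in the other differentiated column, so the columns lay 2.66-fold apart. Arhgap12 1451525_at read 380 and 604, a log2 difference of 0.80. These 2 probe sets of 1 target were thus 1.52 apart on the log2 scale. The median gap over the 34 same-target pairs measured on both arrays was 1.22, and 13 pairs had a larger gap than Arhgap12.

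Arhgap12 1431052_at went the other way in the value table, with 62.3 in undifferentiated and 4.66 in differentiated cells. After normalization it was at least 1.97-fold lower, a bound of -0.98 on the log2 scale. In the GAP and GEF table this probe set read 60.3 in differentiated cells, 12.9-fold above the value table's reading. The fourth Arhgap12 probe set, 1444463_at, read 12.3 and 28.75 and lay under the floor on both arrays. The mean of the 3 measured Arhgap12 probe sets was 0.71 in the value table, and they ran over 3.30 log2 units. Among 75 genes with at least 2 measured probe sets, that range was the 12th widest, and the median range was 1.87.

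Arhgap27 1416758_at read 9.98 in undifferentiated and 517 in differentiated cells of the value table. After normalization it was at least 14.6-fold higher, since the undifferentiated signal lay under the floor. The 2 differentiated columns, 517 and 43.65, lay 11.9-fold apart for this probe set. Arhgap27 1457655_x_at read 34.6 and 11.9, with a bound of -0.21 on the log2 scale. The 2 Arhgap27 probe sets had the same opposite signs in both tables, with the undifferentiated array shared between them. They lay 4.08 apart in the value table and 2.97 apart in the GAP and GEF table, each the 5th widest range, among 75 and 86 genes. The Sh3d20 probe set read 20.55 and 5.82 and lay under the floor on both arrays.

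**Figure D2:**
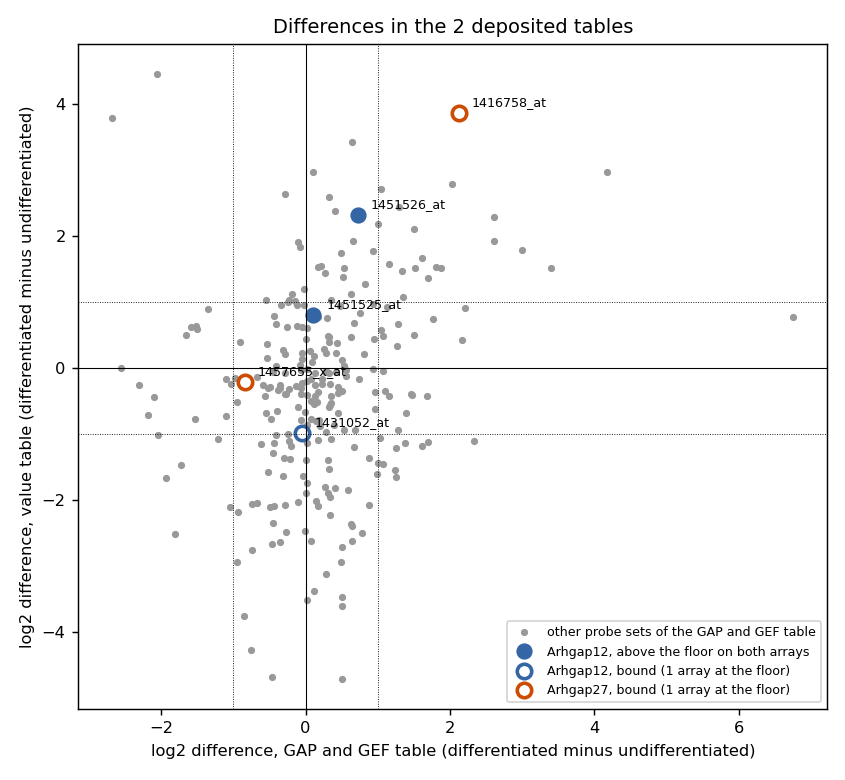
Log2 differences of each probe set in the GAP and GEF table (horizontal) and the value table (vertical), differentiated minus undifferentiated; grey points are the GAP and GEF table's other probe sets, rings are bounds, and dotted lines mark 2-fold. Arhgap27 1416758_at lies past 2-fold on both axes (2.13 and at least 3.87), and Arhgap12 1451526_at past 2-fold on the vertical axis alone (0.73 and 2.32).

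Ranks within an array need no scaling. Among the 45037 probe sets of the value table, Arhgap27 1416758_at moved from the 18.4th percentile in undifferentiated to the 79.2nd in differentiated cells. Arhgap12 1451526_at moved from the 75.2nd to the 91.9th and 1451525_at from the 74.7th to the 81.2nd. Arhgap12 1431052_at moved the opposite way, from the 52.6th to the 5.53rd, as did Arhgap27 1457655_x_at, from the 43.0th to the 12.9th. Ranks describe the same 2 arrays and share their errors. The 18.4th, 5.53rd and 12.9th percentiles belong to signals of 9.98, 4.66 and 11.9, under the floor of 37.6, so they place these signals only among low ones and their exact values have no meaning.

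**Figure D3:**
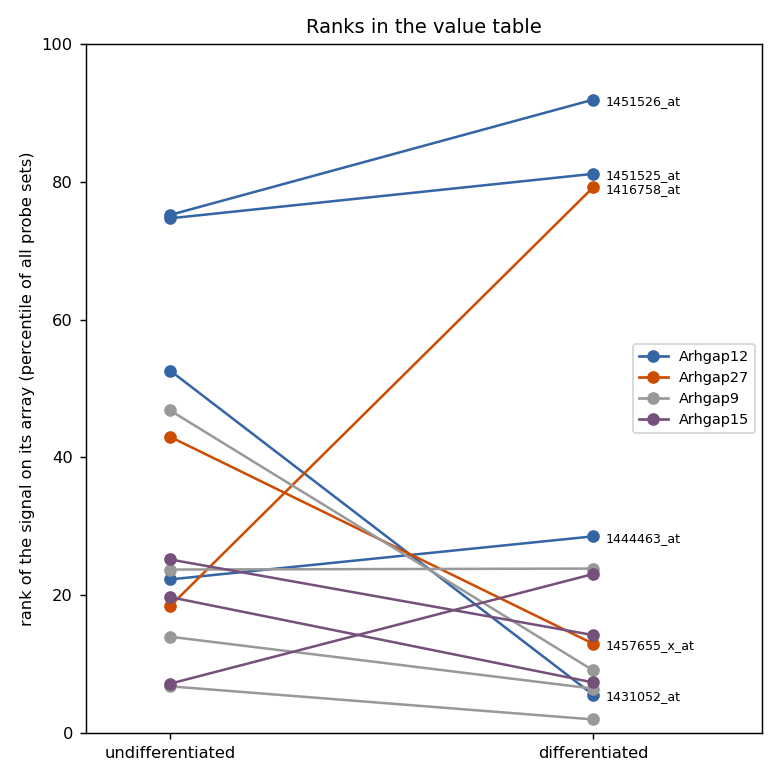
Rank of each family probe set's signal on its array of the value table, as a percentile of 45037 probe sets, in undifferentiated and differentiated cells; each line is 1 probe set, coloured by gene. The line of Arhgap27 1416758_at climbs from 18.4 to 79.2 and that of Arhgap12 1431052_at drops from 52.6 to 5.53; both low ends are signals under the floor of 37.6.

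The balance of 3′ to 5′ signal on the value table's arrays differed between groups. For the Gapdh controls the undifferentiated ratio was 0.868 and the differentiated one 3.77. For beta-actin they were 1.09 and 1.54. Probe set positions within the Arhgap12 and Arhgap27 transcripts were not used here, so the part of this balance in the differences between their probe sets was not tested. The GAP and GEF table lists no such control, so the ratio behind its own differentiated column is unknown.

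**Figure D4:**
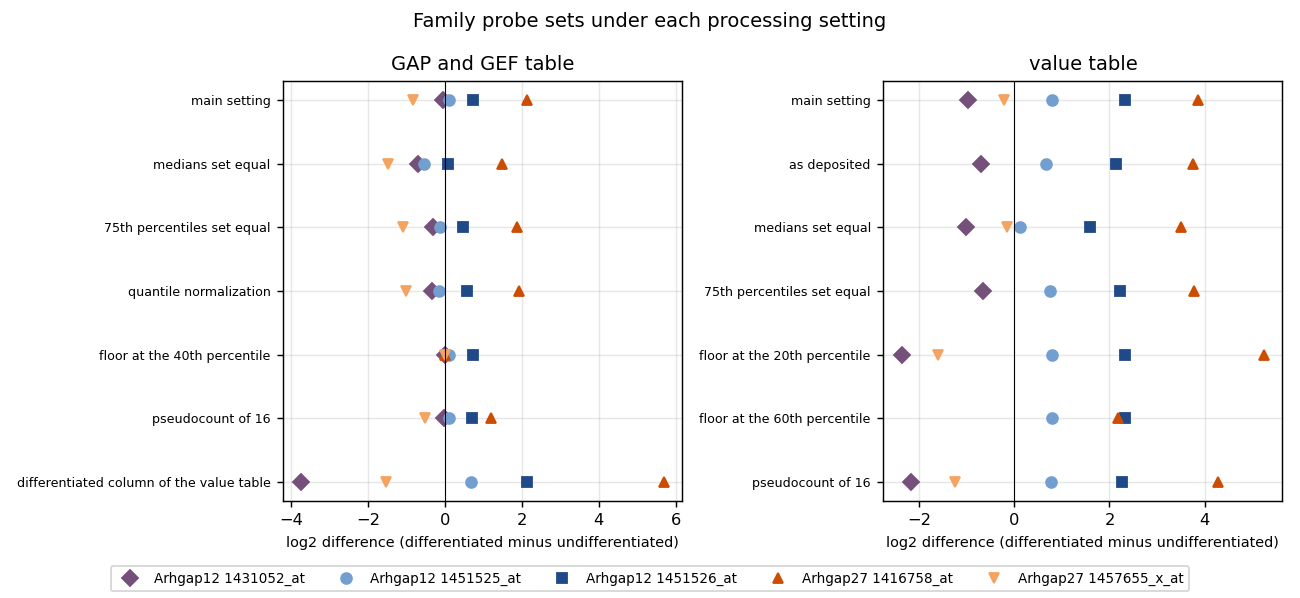
Log2 differences (differentiated minus undifferentiated) of 5 probe sets of Arhgap12 and Arhgap27 under each processing setting, in the GAP and GEF table (left) and the value table (right); a missing point lay under the floor on both arrays. Arhgap27 1416758_at lies right of 0 under all settings except the 40th percentile floor of the left panel, where it is at 0.

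In the GAP and GEF table the Arhgap27 values rest on low signals. Both of its probe sets lay under 62.2, the 40th percentile of the table's signals, in both groups, and a floor there set their differences to 0. A pseudocount of 16 left 1.20 for 1416758_at. The Arhgap12 differences of 1451525_at (0.11) and 1451526_at (0.73) were the same with that floor.

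The probe sets most like each family probe set were sought by the distance between pairs of log2 differences, 1 per table, among 254 probe sets of other genes present in both groups. These are 2 differences that share an array, so likeness is a description. For Arhgap12 1431052_at and Arhgap27 1416758_at and 1457655_x_at the value table difference is a bound, so their distances depend on the floor. Nearest to Arhgap27 1416758_at were Chn2, a chimaerin (distance 1.08, differences 2.03 and 2.79), Arhgap42 (1.58) and Tbc1d2b (1.65). Nearest to Arhgap12 1451526_at were Chm (0.327), Grtp1 (0.388) and Sipa1l1 (0.495), and nearest to 1451525_at were Tbc1d22a (0.069), Rab3gap2 (0.196) and Ric8a (0.205). For Arhgap12 1431052_at they included Gdi2 (0.143) and Tbc1d9b (0.165), and for Arhgap27 1457655_x_at Gpsm2 (0.155), Ankrd27 (0.192) and Gapvd1 (0.201). The 3 other measured family probe sets lay under the value table's floor on both arrays, so their value table difference was set to 0. They were nearest to Tbc1d8b, Gapvd1 and Agap3 (Arhgap12 1444463_at), to Depdc1a, Racgap1 and Arhgap19 (Arhgap15 1435959_at), and to Chml and Stard8 among others (Arhgap15 1441650_at).

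Arhgap12 and Arhgap27 belong to 2 wider lists of GAPs. Of SH3-domain GAPs with a RhoGAP domain, 10 of 12 genes were measured in the GAP and GEF table, by 23 probe sets, of which 6 are Arhgap12 or Arhgap27. Past 2-fold, 8 of the 23 were higher in differentiated cells and 1 lower, against shares of 17.9% and 7.49% over all 307. Several of the 8 share a gene: Srgap2 gave 1.04, 1.10 and 1.28, and Arhgap26 gave 2.60 and 1.13. The median log2 difference of the 23 was 0.52, against 0.17 over all 307. Among those present in both groups, Arhgap27 1416758_at followed the highest, Srgap3 (3.40 ± 0.23), whose protein binds Robo receptors. The lowest of these were Arhgap42 1453638_at (-1.14 ± 1.19) and Arhgap10 (-0.35 ± 1.42), both within 1 model SE of 0. Above the value table's floor lay 18, of which 6 were 2-fold up and 4 down, against 21.1% and 22.0% over all probe sets above it. Their median was 0.30, against -0.028.

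Of GAPs of Rac and Cdc42, 21 of 23 genes were measured by 41 probe sets, with 8 higher and 3 lower past 2-fold (17.9% and 7.49% over all) and a median of 0.0063 (0.17 over all). Among those present in both groups, Arhgap24 (4.18 ± 0.15) and Srgap3 were the highest, and 2 probe sets of Racgap1, a cytokinesis GAP (-2.18 ± 0.08 and -2.10 ± 0.28), the lowest. Arhgap12 1451525_at and 1431052_at lay near this median. The value table counts of this list were 10 higher and 11 lower of 37 (21.1% and 22.0% over all), with a median of -0.41.

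GAPs of RhoA had 12 of 45 probe sets higher and 5 lower past 2-fold, beside 17.9% and 7.49% over all 307, with a median of 0.50 beside 0.17. Among those present in both groups, the highest were Arhgap6 1451867_x_at (3.57 ± 0.36) and Dlc1 1458220_at (1.70 ± 0.50), and the lowest Arhgap19 (-2.55 ± 0.39) and Myo9a 1459991_at (-2.06 ± 0.53). In the value table these counts were 9 and 14 of 37, beside 21.1% and 22.0% over all, and the median was -0.41. There, Myo9a 1459991_at went the other way, with a bound of 4.46. Its signals in the GAP and GEF table were low, 16.75 and 4.02. Arhgap19 1434911_s_at was at 0.0014 and Dlc1 1458220_at at 1.36 in the value table. Arhgap6 1451867_x_at lay under the floor on both arrays. Of the GEFs that switch Rac and Cdc42 on, 1 of 43 listed genes, Tiam2, was in the table. Its 3 probe sets lay within 2-fold, with a median of -0.79 and a lowest value of -0.94 ± 0.10 (1423186_at). By the value table's signals, 1423186_at alone of its 2 measured probe sets was past 2-fold, and lower.

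Arhgap9 and Arhgap15 also belong to a list of regulators typical of leukocytes, of which 9 of 16 genes were in the table. Of its 19 probe sets, 5 were present in undifferentiated and 4 in differentiated cells, and 2 in both. Those 2 were Arhgdib (1.07 ± 0.44) and Rgs18 1449856_at (-0.041 ± 0.23). The summed signal of the list came to 338 before and 481 after differentiation, or 402.5 by the value table's differentiated column, and no member was listed at 0. Arhgdib 1426454_at made up 99.9 of the first sum and 210 of the second. Of the 7 measured, 2 were higher past 2-fold, Arhgdib and Rgs1 (named after its value was seen), and 1 lower, Arhgap15 1435959_at, beside 17.9% and 7.49% over all 307, with a median of -0.041. Above the value table's floor lay 3 of the list, 0 of them past 2-fold, with a median of -0.040. The part of other cells in the Arhgap9 and Arhgap15 signals was not tested. Of the podocyte markers, the GAP and GEF table names Arhgap24 alone, present in both groups, and other podocyte markers were not analysed here.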

How the data were processed

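RNA of undifferentiated and differentiated podocytes was measured on Affymetrix arrays, with 1 deposited sample per group, and groups were taken from the sample titles. The source of the GAP and GEF table's differentiated column is not given. The authors deposited linear intensity values (signals), with standard errors and calls in the GAP and GEF table. The labels' protocols mention dChip for the differentiated sample only; its version, options and normalization were not given in the sources used.

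GAP and GEF signals were used as deposited, with a lowest value of 1. Value table signals were quantile-normalized on the log2 scale and floored. Measured means present in at least 1 group (GAP and GEF table, probe sets of 1 gene) or above the floor on at least 1 array (value table). A gene's mean ran over its probe sets present in at least 1 group (in the value table, those also above the floor). Gene IDs were matched to RefSeq names (GRCm38.p6): 167 of 168. The number of arrays limits the precision, and changes are given by size, with 2-fold as the threshold.

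Members, gene lists and alternatives were chosen with earlier results of these data known. Named were all family probe sets, the 3 probe sets nearest to each one present in at least 1 group, and the 2 highest and 2 lowest present in both groups of each of 5 lists; a gene among the nearest is not reported here. The normalization was run on simulated data in which few probe sets changed, as many up as down, with little noise. Many more probe sets were past 2-fold in the value table, so the simulation does not show how the normalization performs on these data. Python 3.11.15, numpy 2.4.6 and pandas 2.3.3 were used.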

Additional observations from a re-analysis of the deposited data

How the results depend on the processing

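Each group had 1 deposited array, so the values below are sizes without a test. No paired analysis was possible because no group had more than 1 deposited array. Of the recomputed gene means and counts, 25 stayed within the model SE or, for counts, within 1.5 times in total and in each direction, and 29 did not. Some of the 25 could not move, because the alternative took the same probe sets as the main setting. The value table holds no errors, so its means were judged by the model SE of the GAP and GEF table. The Arhgap12 mean in the GAP and GEF table (0.11) was -0.55 with equal medians, -0.15 with equal 75th percentiles, -0.13 after quantile normalization and 0.73 from its brightest probe set alone. In the value table (0.71) it was 0.23 with equal medians, 0.30 and 1.56 with floors at the 20th and 60th percentiles, 0.29 with a pseudocount of 16 and 2.32 from the brightest probe set. The Arhgap27 mean in the GAP and GEF table (0.65) was -0.016 with equal medians, 0.39 with equal 75th percentiles, 0.46 after quantile normalization, 0 with the floor at the 40th percentile and 0.34 with the pseudocount. It was 2.08 with the value table's differentiated column, -0.84 from the brightest probe set and 2.13 from the probe set present in both groups, the last an alternative chosen after seeing the data. Its value table mean (1.83) was 3.75 as deposited, 3.78 with equal 75th percentiles, 2.19 with the floor at the 60th percentile, 1.52 with the pseudocount, and 3.87 from the brightest probe set, which is also the one present in both groups. Adding the Sh3d20 probe set, also chosen after seeing the data, gave 0.70 in the GAP and GEF table. The value table mean stayed at 1.83, because that probe set lay under the floor and did not enter it. The count past 2-fold in the GAP and GEF table (78) was 95 with equal medians, 151 with the value table's column, 122 at 1.5-fold and 26 at 4-fold. In the value table (13727) it was 8704 with the floor at the 60th percentile and 5311 at 4-fold. Of the single family probe sets, 8 of 48 recomputed values in the GAP and GEF table changed sign, from Arhgap12 1451525_at, Arhgap12 1444463_at and Arhgap15 1441650_at, against 0 of 26 in the value table. The causes were not tested. Signals near those called absent limit Arhgap27, Arhgap9 and Arhgap15, and 1444463_at and 1431052_at of Arhgap12.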
